A study of Mus musculus with 4 samples.

Results

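Retinoic acid, a lipid hormone made from vitamin A, is produced, held and destroyed by a small set of enzymes and binding proteins, and 9 of their genes were followed here in the stroma of mouse lymph nodes. They were Lrat, Rdh10, Dhrs3, Aldh1a1, Aldh1a2, Aldh1a3, Crabp1, Crabp2 and Cyp26b1. They were taken by name, as enzymes and binding proteins of retinoid metabolism, and are 9 of the 21392 genes tested. The array held 13 probes for them, with 2 probes each for Lrat, Rdh10, Dhrs3 and Aldh1a3 and 1 probe for each of the other 5 genes. All 13 probes entered the test, 12 of them were well above background on all 4 arrays, and 0 were saturated.

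In vertebrate cells, retinol is stored as retinyl ester, oxidised to retinal and then oxidised irreversibly to retinoic acid, which binds nuclear receptors and switches genes on. Enzymes of the Cyp26 family degrade the acid, so its local level depends on both synthesis and breakdown. In lymph nodes that drain the gut, retinoic acid is known for imprinting gut-homing receptors on lymphocytes, and both dendritic cells and stromal cells there are known to make it.

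RNA was measured in CD45- cells, the fraction of a node left when leukocytes are removed, from mesenteric lymph nodes (mLN) and from peripheral lymph nodes (pLN). All mice were wild type, of strain C57BL/6NCrl, and untreated as far as the labels say. Each of 2 experiments gave 1 mLN and 1 pLN sample, so n = 2 for each kind of node. The labels do not say which peripheral nodes were taken, how many animals were pooled, the animals' age or whether the experiments used separate animals, so the p-values measure only the spread between these samples. Nodes were digested with collagenase at 1 mg/ml for 30 min at 37 degrees in medium with 10% serum, and CD45- cells were taken by magnetic sorting at a stated mean purity of 97.4% ± 2.0 for mLN and 97.5% ± 2.2 for pLN. Each sample was hybridised to a single-colour Agilent array after labelling from 80 ng of RNA. The share of probes well above background ranged over the arrays between 74.0% and 81.1%. Differences are log2(mLN over pLN) after each array was scaled to its 75th percentile, and a gene is called where the adjusted p of limma's moderated test, with Benjamini-Hochberg adjustment over all genes, is under 0.05.

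Aldh1a2 and Lrat were both far higher in mLN than in pLN and were the only members called in that fit. Of the 9 members, 2 were called higher in mLN and 0 lower, where 0.771% of all genes tested were called higher and 0.276% lower. An unadjusted p under 0.05 was reached by 6 members, against 14.7% of all genes. The other 4 of these 6 were Aldh1a1 and Aldh1a3, on the higher side, and Crabp1 and Crabp2, on the lower side. In 4 members both mLN samples lay above both pLN samples and in 2 both lay below, where all genes gave 20.6% and 25.1%. The ratio passed 2-fold in each experiment, in 1 direction, for 2 members higher in mLN (Aldh1a2 and Lrat) and 2 lower (Crabp1 and Crabp2), where all genes gave 2.75% and 1.71%. The median of the 9 log2 differences was 0.18, and that of all genes was -0.03.

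**Figure D1:**
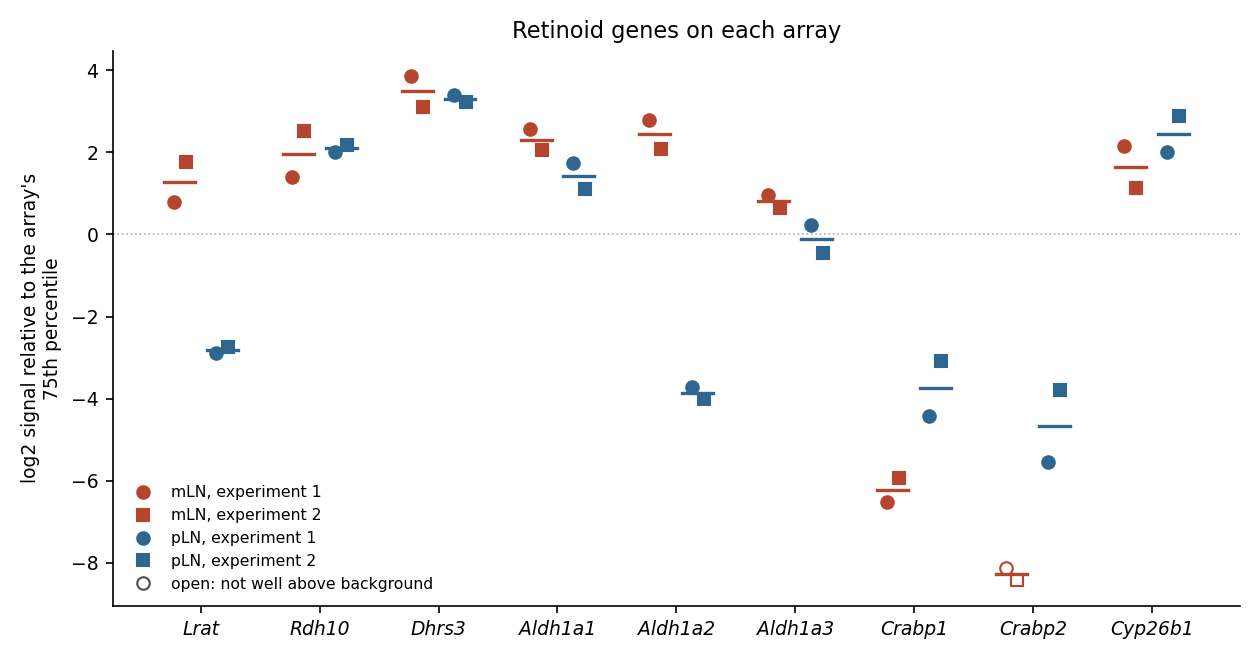
Log2 signal of the 9 genes on each array relative to that array's 75th percentile, with mLN samples left of pLN samples, circles for experiment 1, squares for experiment 2, bars for the mean of 2 samples and open symbols for spots not well above background. The mLN points of Aldh1a2 (2.79 and 2.08) lie far above its pLN points (-3.73 and -4.00), as do those of Lrat, while mLN and pLN overlap for Rdh10, Dhrs3 and Cyp26b1; signals of different genes come from different probes and are not comparable.

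The members with the largest differences were read by the probes whose opening bases follow, each the first 30 of 60 bases, 5′ to 3′, as the scanner files give them. Lrat is shown with both of its probes because they read separate stretches.
Aldh1a2: aaccagctagctcccttcaacccacagtat
Lrat, first probe: ggcgttgattactgcaaaataaattaactt
Lrat, second probe: ggagtcacatttctggtactgaactgtttt
Crabp1: gtttacccacgtgggagaatgagaacaaga
Crabp2: agcaaagtatctttagcctaaaggactcag
On mouse build mm8, the build of the scanner files, the Aldh1a2 probe lies at chr9:71094684-71094743, the Lrat probes at chr3:82978810-82978869 and chr3:82981614-82981673, the Crabp1 probe at chr9:54566522-54566581 and the Crabp2 probe at chr3:88034687-88034746. Which exon or untranslated region each probe covers was not analysed here.

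Lrat encodes lecithin retinol acyltransferase, which esterifies retinol and so fills the cell's vitamin A store. Its first probe gave processed signals of 3018 and 5889 in mLN (experiments 1 and 2), against 234 and 253 in pLN. Both mLN values lay far above both pLN values. The log2 difference was 4.09 ± 0.36 (SE, n = 2 each), a 17.0-fold higher level in mLN, with a 95% interval of 3.13 to 5.06 and a limma adjusted p of 0.0300. The ratio was 12.8-fold in experiment 1 and 22.7-fold in experiment 2. The second probe, whose start lies 2804 bases from the first's, gave 2196 and 2610 in mLN and 195 and 158 in pLN, a log2 difference of 3.75. Among all genes tested, Lrat had rank 90 from the highest difference.

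Rdh10, the retinol dehydrogenase that supplies retinal for retinoic acid in the embryo, was not called. Its first probe, at mm8 chr1:16117195-16117254, gave 4587 and 9870 in mLN and 6952 and 7696 in pLN, so the pLN samples lay between the mLN samples. The log2 difference was -0.14 ± 0.41 (SE, n = 2 each), with an interval of -1.23 to 0.95 and a limma adjusted p of 0.928. The experiments went opposite ways, at -0.61 and 0.32, and the second probe averaged 0.05. Without mLN 1 the log2 difference was 0.42.

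Dhrs3 encodes a retinal reductase, which turns retinal back into retinol and thereby limits retinoic acid. It was also not called. The first probe, at chr4:144194134-144194193, gave 25308 and 14903 in mLN and 18237 and 15738 in pLN. Its log2 difference was 0.18 ± 0.29 (SE, n = 2 each), with an interval of -0.62 to 0.97 and a limma adjusted p of 0.863, and without mLN 1 it was -0.20. The second probe, which starts 133 bases from the first, gave 0.15. The intervals of Rdh10 and Dhrs3 include differences in both directions, so an equal level in the 2 kinds of node was not shown.

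Aldh1a1, Aldh1a2 and Aldh1a3 encode the retinaldehyde dehydrogenases, the enzymes that make retinoic acid from retinal in the final, irreversible step. Aldh1a2 gave signals of 12084 and 7310 in mLN, against 131 and 105 in pLN. Both pLN values were low but well above background. The log2 difference was 6.30 ± 0.29 (SE, n = 2 each), a 78.8-fold higher level in mLN, with a 95% interval of 5.52 to 7.08 and a limma adjusted p of 0.0108. The ratio was 91.9-fold in experiment 1 and 67.6-fold in experiment 2. Among the 21392 genes tested, Aldh1a2 had rank 39 from the highest difference.

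Aldh1a1 gave 10371 and 7177 in mLN and 5749 and 3654 in pLN. Its log2 difference was 0.89 ± 0.30 (SE, n = 2 each), 1.85-fold higher in mLN, with an interval of 0.07 to 1.71, but the limma adjusted p was 0.302. Both mLN values lay above both pLN values, and the experiments gave 0.84 and 0.94. Aldh1a3, read at chr7:66269849-66269908, gave 3376 and 2726 in mLN and 2047 and 1229 in pLN. Its log2 difference was 0.91 ± 0.29 (SE, n = 2 each), 1.88-fold higher in mLN, with an interval of 0.14 to 1.69 and an adjusted p of 0.274 by limma. The second Aldh1a3 probe, 18122 bases away and designed on a partial coding sequence, gave a log2 difference of 0.58. Neither gene was called, and their intervals do not reach the interval of Aldh1a2.

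**Figure D2:**
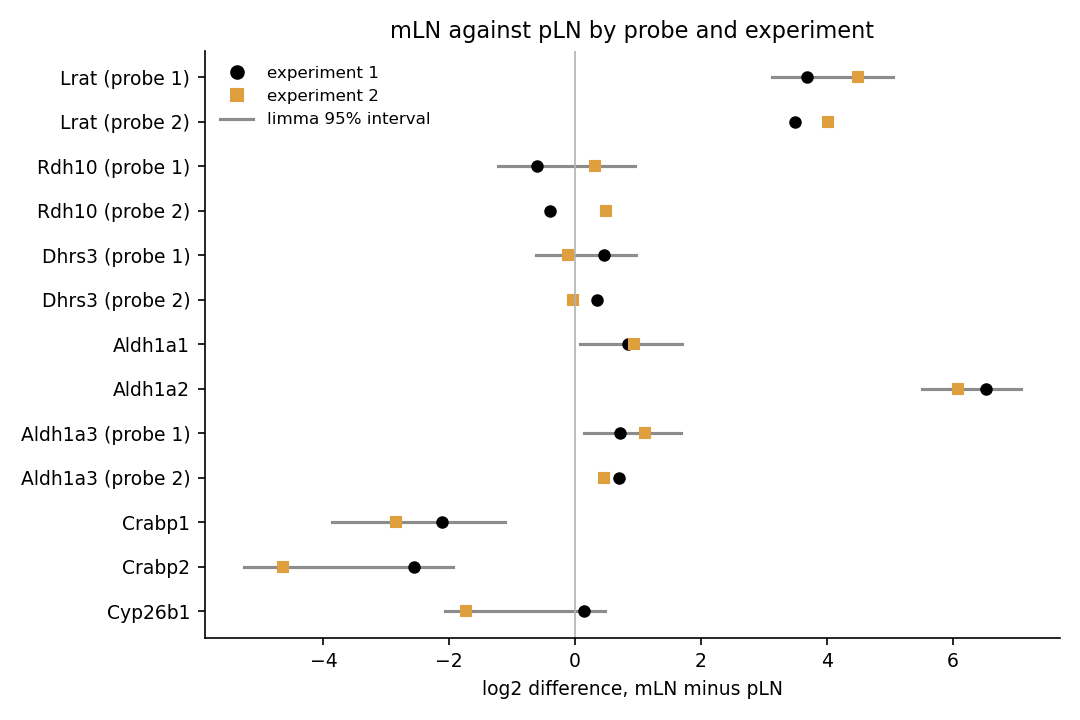
Log2 difference of mLN minus pLN for each of the 13 probes, with a circle for experiment 1, a square for experiment 2 and, for the probe that stands for its gene, the 95% interval of the limma fit as a line. Aldh1a2 and both Lrat probes stand on the positive side, Crabp1 and Crabp2 on the negative side, and Rdh10, Dhrs3 and Cyp26b1 have experiments on both sides of 0 (Crabp2 in mLN was not well above background, so its points are fitted values and no bound).

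Crabp1 and Crabp2 encode the cellular retinoic acid binding proteins, small carriers that hold retinoic acid in the cytosol; Crabp2 is known to hand the acid to its nuclear receptor, and Crabp1 is linked to its breakdown. Both were dim. Crabp1 gave 18.9 and 28.3 in mLN, against 81.5 and 199 in pLN. Its log2 difference was -2.48 ± 0.51 (SE, n = 2 each), 5.60-fold lower in mLN, with an interval of -3.86 to -1.11 and a limma adjusted p of 0.141. With the experiment as a replicate block the adjusted p was 0.0491 (limma), so that the call depends on the block. The log2 difference was -3.15 without pLN 1 and -1.82 without pLN 2.

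Crabp2 was not well above background in mLN on either array, at 6.28 and 5.02, against 37.1 and 122 in pLN. Its level in mLN is therefore only bounded, with a limma adjusted p of 0.111 for the fitted difference. With mLN set at each array's lowest well-above-background signal, it was at least 4.36-fold lower than in pLN. This bound was 8.00-fold without pLN 1 and 2.37-fold without pLN 2, and it holds for that setting only. Under a background correction that took each array's local background (normexp), the fitted differences of Crabp1 and Crabp2 became 0.60 and 0.87, where the median of all genes moved to 0.38. Normexp with 1 background value per array, chosen after seeing the data, gave -1.09 for Crabp1 and -1.04 for Crabp2. The deposited value table gave -2.48 and -1.97. The size of both differences therefore depends on how the background is handled.

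Cyp26b1 encodes the cytochrome P450 that degrades retinoic acid in many tissues. It gave 7754 and 3812 in mLN and 6999 and 12416 in pLN, so that the samples overlapped. The log2 difference was -0.80 ± 0.47 (SE, n = 2 each), with an interval of -2.07 to 0.47 and a limma adjusted p of 0.548. Experiment 1 gave 0.14 and experiment 2 gave -1.74. The interval includes differences in both directions, and the negative mean comes from experiment 2.

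Leaving out a pLN array left no gene called, at 0 of 21392 for either one. The adjusted p of Aldh1a2 was then 0.0859 without pLN 1 and 0.107 without pLN 2, and that of Lrat was 0.186 and 0.194, while the log2 differences stayed near the full ones, at 6.44 and 6.16 for Aldh1a2 and at 4.02 and 4.17 for Lrat. An unadjusted limma p under 0.05 was then still reached by 1877 and 2297 genes. The spread in those fits comes only from the other node and is assumed to be shared by the lone sample. With 2 samples a group an exact permutation test cannot go below 0.333.

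Promoter sequences are given for Aldh1a2 and Lrat because they are the members that were called higher together. They come from RefSeq on build GRCm38.p6, run 5′ to 3′ on the gene's strand, and capitals mark matches to CCAAT or to GGGCGG on either strand (read as CCGCCC on the other one).
Aldh1a2, chr9:71215539-71215838, plus strand: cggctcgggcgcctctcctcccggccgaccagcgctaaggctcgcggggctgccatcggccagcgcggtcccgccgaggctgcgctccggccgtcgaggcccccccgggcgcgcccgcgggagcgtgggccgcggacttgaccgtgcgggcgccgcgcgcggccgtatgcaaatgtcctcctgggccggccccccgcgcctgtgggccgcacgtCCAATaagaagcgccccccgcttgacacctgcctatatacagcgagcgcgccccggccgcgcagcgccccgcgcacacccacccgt
Lrat, chr3:82903925-82904224, minus strand: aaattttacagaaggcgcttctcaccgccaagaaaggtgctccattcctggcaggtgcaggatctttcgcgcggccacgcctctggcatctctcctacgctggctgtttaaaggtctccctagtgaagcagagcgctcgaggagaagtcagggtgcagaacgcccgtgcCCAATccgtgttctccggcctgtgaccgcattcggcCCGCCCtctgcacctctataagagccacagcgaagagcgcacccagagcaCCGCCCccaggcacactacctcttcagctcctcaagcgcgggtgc
The Aldh1a2 sequence is 78.0% G and C and the Lrat sequence 60.7%. Aldh1a2 has 1 CCAAT, starting 36 bases before the annotated transcript start. Lrat has CCAAT 81 bases before its start, and the reverse of GGGCGG 45 bases before and again 5 bases after it. Of 32851 promoters of the same length, 37.4% hold CCAAT and 35.7% hold GGGCGG on either strand. The retinoic acid receptor half-site was searched as AGGTCA and as its variants, which are AGTTCA, the form GGGTCA and also the form GGTTCA, on either strand, and 43.7% of all promoters hold at least 1. Neither Aldh1a2 nor Lrat has it in this window. Among the 9 promoters of the 6 members in the table, it was found once, in the second promoter of Aldh1a1, 49 bases before its start and on the reverse strand. No direct repeat of half-sites spaced by 1, 2 or 5 bases was found in those 9 promoters, where 0.588% of all promoters hold one. A match is a string of letters and does not show binding, and no match says only that these letters are absent from this window.

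The wider retinoid pathway was listed as 56 genes, of which 54 were on the array and 48 could be tested. None was called, where 0.771% of all genes were called higher and 0.276% lower. There were 12 with an unadjusted limma p under 0.05, which 14.7% of all genes reached. The differences were positive for 26 genes and negative for 22, with a median of 0.09. Both mLN samples lay above both pLN samples for 15 of them and below for 10, against 20.6% and 25.1% of all genes. The ratio passed 2-fold in each experiment for Rbp4 and Rarb, 2 of the 48 genes, higher in mLN, where 2.75% of all genes did. Rdh16 did so on the lower side, as 1.71% of all genes did, only by mLN signals that were not well above background.

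By role, the medians were -0.04 for 8 uptake and transport genes, 0.05 for 15 genes of retinol and retinal conversion, -0.23 for 6 further genes of acid synthesis and breakdown, -0.05 for 7 receptor genes and 0.34 for 12 genes known to respond to retinoic acid. Of those 12, 10 were positive and 7 had both mLN samples above both pLN samples, as 20.6% of all genes did, with 0 called. Rbp4, the plasma carrier of retinol, gave 7935 and 5450 in mLN and 2973 and 1929 in pLN, a log2 difference of 1.44 ± 0.30 (SE, n = 2 each; limma adjusted p = 0.143). Rarb, the retinoic acid receptor beta and itself a textbook retinoic acid target, gave 1638 and 1133 in mLN and 459 and 210 in pLN, a log2 difference of 2.11 ± 0.43 (limma adjusted p = 0.139). Its second probe was well above background on mLN 1 only.

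Rdh16, a retinol dehydrogenase, was not well above background in mLN. By the bound used here it was at least 1.39-fold lower there than in pLN (limma adjusted p = 0.162 for the fitted difference). That bound was 1.51-fold in experiment 1 and 1.29-fold in experiment 2. The fitted log2 difference of Rdh16 was -1.69, against -0.33 in the deposited value table. It was -0.24 under normexp with 1 background value per array and 1.58 with local background, so its direction depends on the correction. Aldh1a7, a close relative of Aldh1a1, gave 97.6 and 30.6 in mLN and 118 and 36.8 in pLN (log2 difference -0.29 ± 0.80; limma adjusted p = 0.926). Its sign turned with the array left out, to 0.54 without mLN 2 and 0.53 without pLN 1, against -1.12 without mLN 1 and -1.11 without pLN 2. Cyp26a1, which degrades retinoic acid like Cyp26b1, was dim, at 44.5 and 22.4 in mLN and 16.6 and 19.4 in pLN, with a log2 difference of 0.79 ± 0.37 (limma adjusted p = 0.445). Cyp26c1 had no probe named for it.

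**Figure D3:**
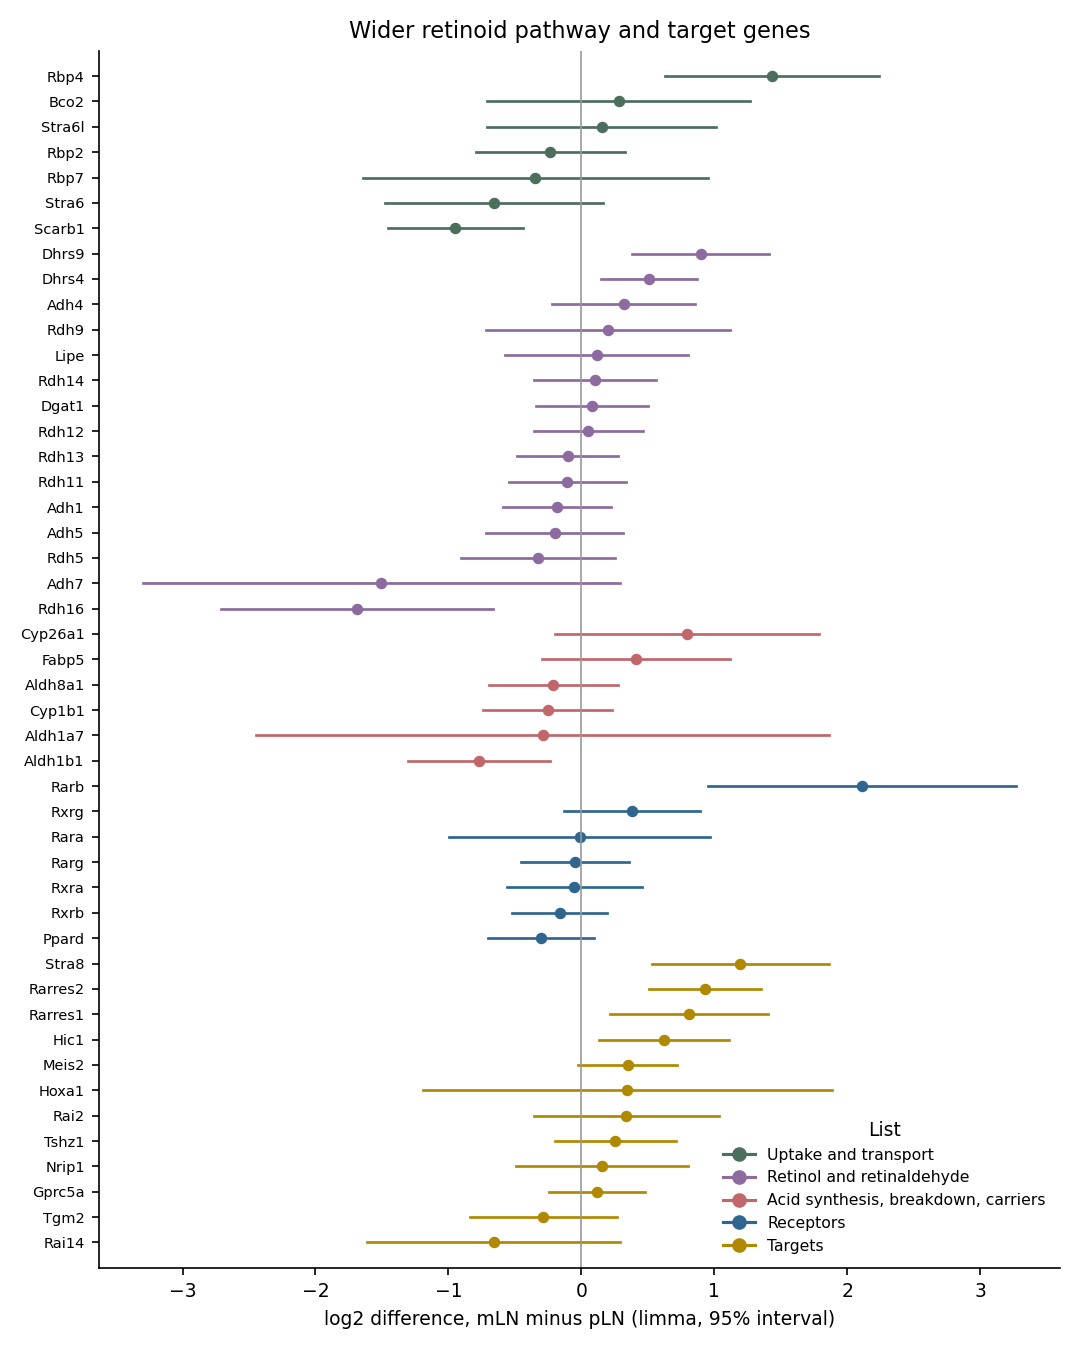
Log2 difference of mLN minus pLN, with the 95% interval of the limma fit, for tested genes of the wider retinoid lists, coloured by role. Points lie on both sides of 0 in each role, Rarb at 2.11 is the highest, and no gene was called; the points of Rdh16 and Adh7 rest on mLN signals not well above background on 1 or both arrays.

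By Euclidean distance over the 4 arrays, of log2 values less each gene's own mean, the 3 genes nearest to Aldh1a2 were Cybrd1 at 0.355, Myl7 at 0.469 and Isl1 at 0.486. Cybrd1, a duodenal iron reductase, had a log2 difference of 6.07, and Myl7, an atrial myosin light chain, one of 6.71. Isl1, a LIM-homeodomain transcription factor, was not well above background in pLN and was at least 35.9-fold higher in mLN. The 3 nearest to Lrat were Calcb at 0.269, 6720468P15Rik at 0.508 and Slitrk4 at 0.520. Calcb and Slitrk4 were not well above background in pLN and their bounds were at least 3.91-fold higher for Calcb and at least 3.06-fold higher for Slitrk4 in mLN, and 6720468P15Rik had a limma adjusted p of 0.0501. These distances rest on 2 samples a group, and those of Isl1, Calcb and Slitrk4 also on pLN signals that were not well above background, so their order is uncertain.

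The level of a transcript in a sorted bulk fraction reflects both the share of cells that carry it and the amount per cell, and these cannot be told apart here. Most markers of mesothelium, the lining of the body cavities, moved in the same direction as Aldh1a2 and Lrat, with 11 of 13 positive. The 2 negative ones were Gpm6a, at -0.01, and Krt18, named after its values were seen, at -0.57. Of 13 mesothelial genes, 9 were called higher in mLN and 0 lower, where 0.771% and 0.276% of all genes were. The summed level of the 13 relative to the array's 75th percentile was 93.1 and 70.2 in mLN, against 34.6 and 36.3 in pLN. Most of the pLN sum came from Gpm6a, so the sum does not give the size of the difference in the other genes. Upk3b, a mesothelial uroplakin, gave 16150 and 14313 in mLN and 18.4 and 19.7 in pLN, and Msln, which encodes mesothelin, gave 18612 and 11461 in mLN and 51.9 and 18.1 in pLN. Wt1, a mesothelial transcription factor, gave 1192 and 1014 in mLN and was not well above background in pLN. The brightest of the list, Gpm6a, Rspo1 and Krt19, had log2 differences of -0.01, 2.45 and 1.11, of which only that of Rspo1 was called, and it was not called with the replicate block (limma adjusted p = 0.0511). The part of these cells in the Aldh1a2 and Lrat differences was not tested.

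Pancreatic acinar genes, the digestive enzymes of the pancreas, had both mLN values above both pLN values in 14 of 14, where all genes gave 20.6%. Of the 14, 1 was called higher in mLN, where 0.771% of all genes were. For the 9 that were well above background on both pLN arrays the log2 differences were 5.17 to 8.54, and the other 5 were at least 53.1-fold to 591-fold higher in mLN. Their summed level was 1260 and 445 in mLN, against 25.9 and 1.88 in pLN, so samples differed within each kind of node, by ratio more in pLN. Prss2 gave 12920 on pLN 1 and 33.9 on pLN 2. Cela2a, picked for its values, has the bound of 591-fold, but its pLN 1 signal was 3708 and its log2 difference in experiment 1 was 5.96. The mesothelial and pancreatic sums were higher on mLN 1 than on mLN 2, as was Aldh1a2, while Lrat was higher on mLN 2. A part of these cells in either gene was not tested. Prss2, Ctrb1 and Cela1, the brightest of the list, gave 378743, 342363 and 277086 on mLN 1.

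None of the leukocyte markers listed was called, where 0.771% of all genes were called higher in mLN and 0.276% lower. Ptprc, which encodes CD45 itself, gave 597 and 647 in mLN and 696 and 496 in pLN, with a log2 difference of 0.06 (limma adjusted p = 0.944). Itgax, the dendritic cell integrin CD11c, gave 162 and 201 in mLN and 122 and 111 in pLN, a log2 difference of 0.61 (limma adjusted p = 0.234). None of 8 dendritic cell genes tested was called, and their summed level was 3.86 and 4.65 in mLN and 3.82 and 3.86 in pLN. Among them Batf3, picked for its values, passed 2-fold in each experiment, with log2 differences of 1.18 and 1.22 (limma adjusted p = 0.0696). The differences of 3 of these 8 genes were negative. Of the lymphocyte genes, 0 of 8 were called, with sums of 3.37 and 4.56 in mLN and 3.90 and 3.29 in pLN. Cd8a, also picked for its values, passed 2-fold in each experiment, at 1.05 and 1.16 (limma adjusted p = 0.102), and 3 of the 8 were negative. Over all genes, 2.75% passed 2-fold on the higher side in each experiment. An equal leukocyte content of the samples was not shown.

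Over all genes 0.771% were called higher in mLN and 0.276% lower, so 0 called in a short list says little. Markers of reticular stroma, the fibroblasts that form the node's scaffold, were 0 of 9 called, with sums of 493 and 615 in mLN and 498 and 555 in pLN. Ccl19, the brightest of them, a chemokine of node fibroblasts, gave 259315 and 482982 in mLN and 265473 and 387999 in pLN. Ccl19, Col3a1 and Cxcl13 had log2 differences of 0.12, 0.04 and -0.06. Endothelial genes were 0 of 9 called, with sums of 215 and 335 in mLN and 331 and 359 in pLN. Their median log2 difference was -0.55, 7 were negative and 2, Lyve1 at 1.04 and Madcam1 at 1.64, positive. An unadjusted limma p under 0.05 was reached by 6 of them, against 14.7% of all genes. Adipocyte genes were 0 of 5 called, with 209 and 124 in mLN and 216 and 174 in pLN. Most of that sum came from Fabp4, at a log2 difference of -0.24. Adipoq varied within each node, at 4921 and 529 in mLN and 3871 and 783 in pLN. Pparg stood at -1.17 and Plin1, the only 1 of the 5 that was positive, at 1.82. Glandular epithelial genes had 2 called higher and 3 lower of 11, where 0.771% and 0.276% of all genes were. Their sums were 4.66 and 4.09 in mLN and 6.62 and 13.8 in pLN. Among these genes Csn3 and Wfdc2 were called lower in mLN, at log2 differences of -6.91 and -4.56, and Krt7 higher, at 2.01. The other gene called higher was Csn2, a casein like Csn3, at 4.36, with 1179 and 1153 in mLN and 60.0 and 52.1 in pLN, and the other called lower was Esrp1, which was not well above background in mLN. Keratinocyte genes were 0 of 8 called, with sums of 24.6 and 23.0 in mLN and 23.8 and 25.1 in pLN. Sfn made up most of that sum. Krt5, Krt15 and Trp63 had log2 differences of -1.78, -2.30 and -1.11, none of them called, and each was highest on pLN 2. Krt10 and Krt14, the next brightest after Sfn, went the other way, at 0.79 and 0.54. Krt1 was lower on pLN 2 than on pLN 1, at 260 against 321, as was the dim Dsg3, at 18.1 against 32.6. Genes of the marker lists named beyond the brightest 3 here were chosen after their values were seen. Crabp1 and Crabp2 were also higher on pLN 2 than on pLN 1, as were the glandular epithelial sum, Krt5, Krt15 and Trp63, but not every keratinocyte gene. Whether such cells have a part in Crabp1 and Crabp2 was not tested.

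**Figure D4:**
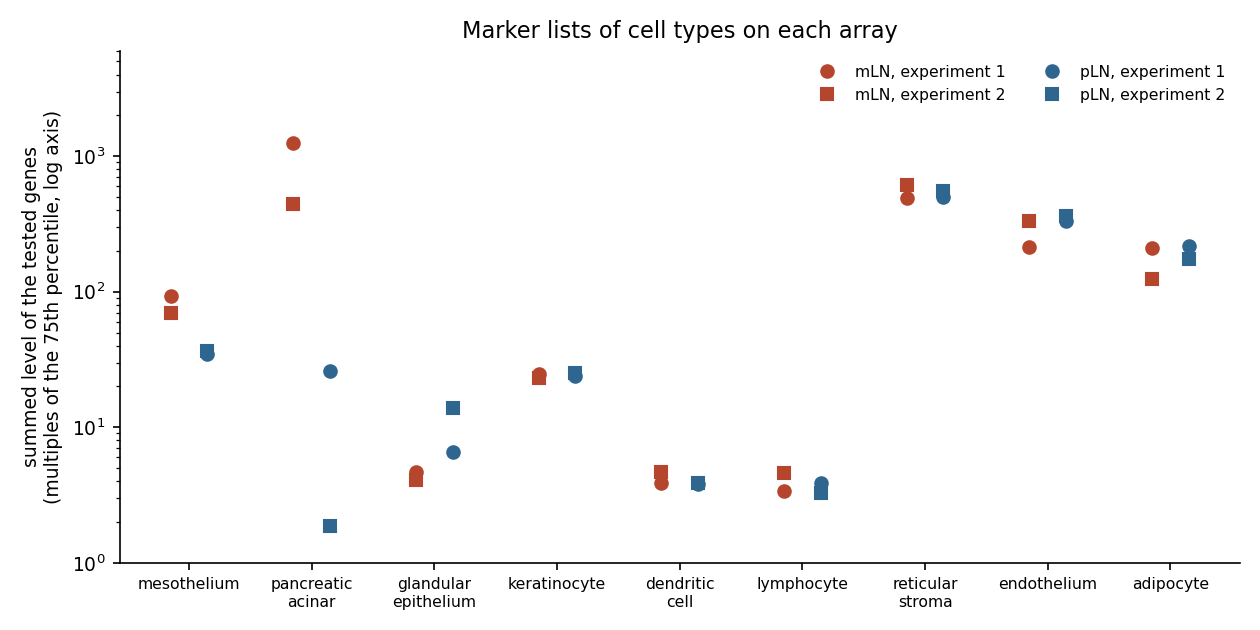
Summed level of each marker list on each array (log axis, in units of the array's 75th percentile), with mLN samples to the left of pLN samples. Mesothelial sums lie at 93.1 and 70.2 in mLN against 34.6 and 36.3 in pLN, where most of the pLN sum is Gpm6a. Pancreatic sums differ most, and the sums of reticular stroma are close in both.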

How the data were processed

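Intensities were extracted by the authors (Agilent Feature Extraction, version 9.5.3.1, per the submitters' processing notes and the file headers); the processed signal is background-subtracted and detrended within each array. Flags for spots well above background, saturated or outlying were used as deposited, per the file headers. The deposited value table holds linear intensity scaled to a 75th percentile of 1500 with a lowest value of 15; its column medians are 172 and 161 for mLN and 169 and 167 for pLN, and it is the processed signal times a factor per array (0.862 to 0.890). The 4 arrays were on 1 slide and were scanned once each, so slide is not a difference between groups.

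Control and outlying spots were dropped, log2 of the processed signal was taken less the array's 75th percentile (a signal of 1686 to 1741), and a probe was kept where both arrays of 1 or the other node flagged it well above background. This kept 31883 of 41174 probes and 21392 genes, the brightest kept probe standing for its gene. Probe names came from RefSeq by accession (24375 probes), symbol (6301) or synonym (2426), and otherwise from the file (8072). limma 3.58.1 in R 4.3.3 was fitted to the 4 arrays with no block term and a Benjamini-Hochberg threshold of 0.05, after the steps were checked on simulated data. The number of arrays limits the precision. A bound is given where a gene is not well above background on 1 or both arrays of its lower node. It sets the other node's mean against, per array, the higher of the lowest well-above-background signal (mLN 12.9 and 19.0, pLN 13.8 and 16.1) and the probe's own. That lowest signal is not a limit of detection. Each bound therefore holds only for this choice and for the processed signal used here.

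Experiment numbers in the labels mark shared experiments, so they pair the samples; deviations of same-numbered samples correlated at r = 0.246. The pairing was fitted as a replicate block. Other alternatives were normexp, median and quantile scaling, other probe filters, the mean of a gene's probes, an intensity trend, the deposited table and leaving out each array. A normexp with 1 background value per array was chosen after seeing the data.

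The genes and lists were chosen with earlier results of these data known. Genes were named by rule: all members and probes; pathway and target genes that were called or passed 2-fold in each experiment in 1 direction (up to 4 per list and direction); Aldh1a7, Cyp26a1, Cyp26c1 and Rarb; up to 3 marker genes per list with the highest mean signal, and Ptprc, Itgax, Upk3b, Msln and Wt1; and the 3 genes nearest to each called member. A further pathway gene that the rule names is counted in its list but not reported here.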

Additional observations from a re-analysis of the deposited data

How the results depend on the processing

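Of 125 values of the 9 genes under alternatives, 112 kept their direction and their side of the threshold, 7 kept their direction but were no longer called, 1 became called and 5 changed sign. Without pLN 1 or without pLN 2, 0 genes and 0 of the 9 members were called, and over all 4 arrays left out in turn the counts of called genes ran from 0 to 185 and those of members from 0 to 2. Under normexp with local background 0 genes and 0 members were called by limma, although 569 genes had an unadjusted p under 0.05, and the log2 differences were 5.40 for Aldh1a2, 3.54 for Lrat (adjusted p = 0.507 for both), 0.60 for Crabp1, 0.87 for Crabp2 and -0.086 for Dhrs3; the median of all genes was then 0.38. Without a filter on dim probes 44 genes and 1 member were called, with more genes tested, and Lrat stood at 4.09 (adjusted p = 0.0871). Median scaling called 354 genes, the intensity trend 440 and normexp with 1 background value per array, which was chosen after seeing the data, 358. The intensity trend called 1 pathway gene in place of 0, and this was Rarres2, named after its values were seen. Leaving out arrays in turn, Aldh1a2 ran from 5.94 to 6.66, Lrat from 3.60 to 4.58, Rdh10 from -0.70 to 0.42 and Dhrs3 from -0.20 to 0.55, the last 2 crossing 0 without mLN 1. With the replicate block, which uses the pairing by experiment, Crabp1 at -2.48 had an adjusted p of 0.0491 and was called, 333 genes and 3 members were called, and no other member changed its call. Except where noted, the cause of these changes was not tested. Crabp2 has no value where probes had to be well above background on all 4 arrays.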

Other observations

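Rarres2, a secreted chemoattractant known to respond to retinoids, and Stra8, a germ cell gene induced by retinoic acid, were named after their values were seen. Rarres2 gave 208527 and 189216 in mLN and 96516 and 109077 in pLN, a log2 difference of 0.93 ± 0.16 (SE, n = 2 each; limma adjusted p = 0.108). Stra8 gave 205 and 241 in mLN and 118 and 77.3 in pLN, a log2 difference of 1.20 ± 0.25 (limma adjusted p = 0.143). Scarb1, a scavenger receptor that takes up carotenoids and lipids, was also picked for its values and went the other way, at 7631 and 8440 in mLN and 13626 and 17061 in pLN, a log2 difference of -0.95 ± 0.19 (limma adjusted p = 0.136). None of these genes was called.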
